A study of Mus musculus with 8 samples.

Results

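The insulin-like growth factor (IGF) family examined here comprised 10 genes: the ligands Igf1 and Igf2, the receptors Igf1r and Igf2r, and the binding protein genes Igfbp2, Igfbp3, Igfbp4, Igfbp5, Igfbp6 and Igfbp7. They were taken by name, as the non-control probes of the array that carry those gene names, which gave 16 probes of 55501 with a value on every array. All 10 genes and all 16 probes passed the filter on dim probes, among 27110 genes tested.

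One group of cells was transduced with a lentivirus carrying Hoxa9 together with eGFP (Hoxa9-eGFP, 4 arrays), and the control group with a lentivirus carrying eGFP alone (eGFP, 4 arrays). Hoxa9 encodes a homeobox protein that helps to lay out the axial skeleton and the limbs in the embryo, and eGFP is the fluorescent protein used to sort transduced cells. Both groups came from satellite cells, the stem cells of skeletal muscle, sorted from the hindlimbs of C57BL/6J mice (3 to 4 months old) and kept in growth medium overnight before transduction. Both therefore carry an integrated lentivirus and eGFP, and both were sorted for eGFP 5 days after transduction, so a Hoxa9-eGFP value reflects overexpression in culture. RNA (0.1 ug per sample) was labelled with Cy3 and hybridised to 1-colour Agilent mouse 8x60K arrays. The samples are numbered 1 to 4 in both groups, and the labels do not say that they came from separate animals, so a p-value here speaks of the spread among them, which may be technical.

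IGF1 and IGF2 are secreted growth factors that signal through the IGF1 receptor, a tyrosine kinase that acts through insulin receptor substrates on the PI3K, Akt and mTOR pathway. In muscle this pathway is known for supporting myoblast proliferation, differentiation and fibre growth. The IGF2 receptor mainly clears IGF2, and the binding proteins hold IGFs outside the cell, where they can keep them from the receptor or carry and release them.

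Each value below is a log2 signal relative to the 75th percentile of its array, a difference is Hoxa9-eGFP minus eGFP on that scale, and a gene was called when its limma p, adjusted over all 27110 genes by Benjamini-Hochberg, was under 0.05. Between 69.6% and 77.5% of the non-control spots of an array were well above background. Hoxa9 itself averaged 5.49 in Hoxa9-eGFP arrays and -0.49 in eGFP arrays (log2 difference 5.97). Of the 8 myogenic markers listed (Pax7, Myf5, Myod1, Des, Cdh15, Itga7, Sdc4 and Chrna1), all were measured, and their mean was 3.01 to 3.33 in Hoxa9-eGFP arrays and 3.88 to 4.11 in eGFP arrays. Of these, 5 were called lower in Hoxa9-eGFP arrays and none higher, and with the experiment number as a block 3 were called lower, as Myf5 and Chrna1 were lost (limma adjusted p = 0.0515 and 0.0603). For this and the marker lists below, the shares over all genes without the block were 7.41% called lower and 7.71% higher. With the block, more of all genes were called in each direction, so marker calls gained with it stand against larger shares than these. The part of this marker difference in the IGF results was not tested. In such bulk samples, fewer cells of a type and less RNA per cell cannot be told apart.

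The array reads Igfbp2 and Igfbp5 through probes 5956 bases apart in the mm9 positions of the files, on opposite strands of chromosome 1. In the RefSeq gene order the pair are neighbours. They moved in opposite directions, so the stretches measured are shown here, each 5′ to 3′. The whole 60-base Igfbp2 probe A_55_P2056729 (chromosome 1, 72898677 to 72898736, plus strand) ends the reading frame, with 19 open codons before the stop codon in capitals. The other Igfbp2 probe, A_66_P135391 (72898813 to 72898872), begins 76 bases after it, and the single Igfbp5 probe, A_52_P281702, lies at 72904829 to 72904888 on the minus strand. The first 30 bases of those probes are given.
Igfbp2 A_55_P2056729: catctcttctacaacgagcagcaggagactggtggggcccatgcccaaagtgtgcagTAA
Igfbp2 A_66_P135391, first 30 bases: aggagttcccagttttgacacatgtattta
Igfbp5 A_52_P281702, first 30 bases: cacatcacatattactgtagctctctatag

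Of the 10 family genes, 5 were called, all of them binding proteins. Igfbp3, Igfbp5 and Igfbp7 were higher and Igfbp2 and Igfbp6 lower in Hoxa9-eGFP arrays. Over all genes tested, 15.1% were called, 7.71% of them higher and 7.41% lower as shares of the genes tested. The arrays of the groups did not overlap for 5 of the 10 family genes, the same 5, against 23.5% of all genes. The median difference of the 10 genes was 0.01 and that of all genes -0.08, while the median size of a difference was 0.73 in the family and 0.37 over all genes. Neither ligand and neither receptor was called.

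**Figure D1:**
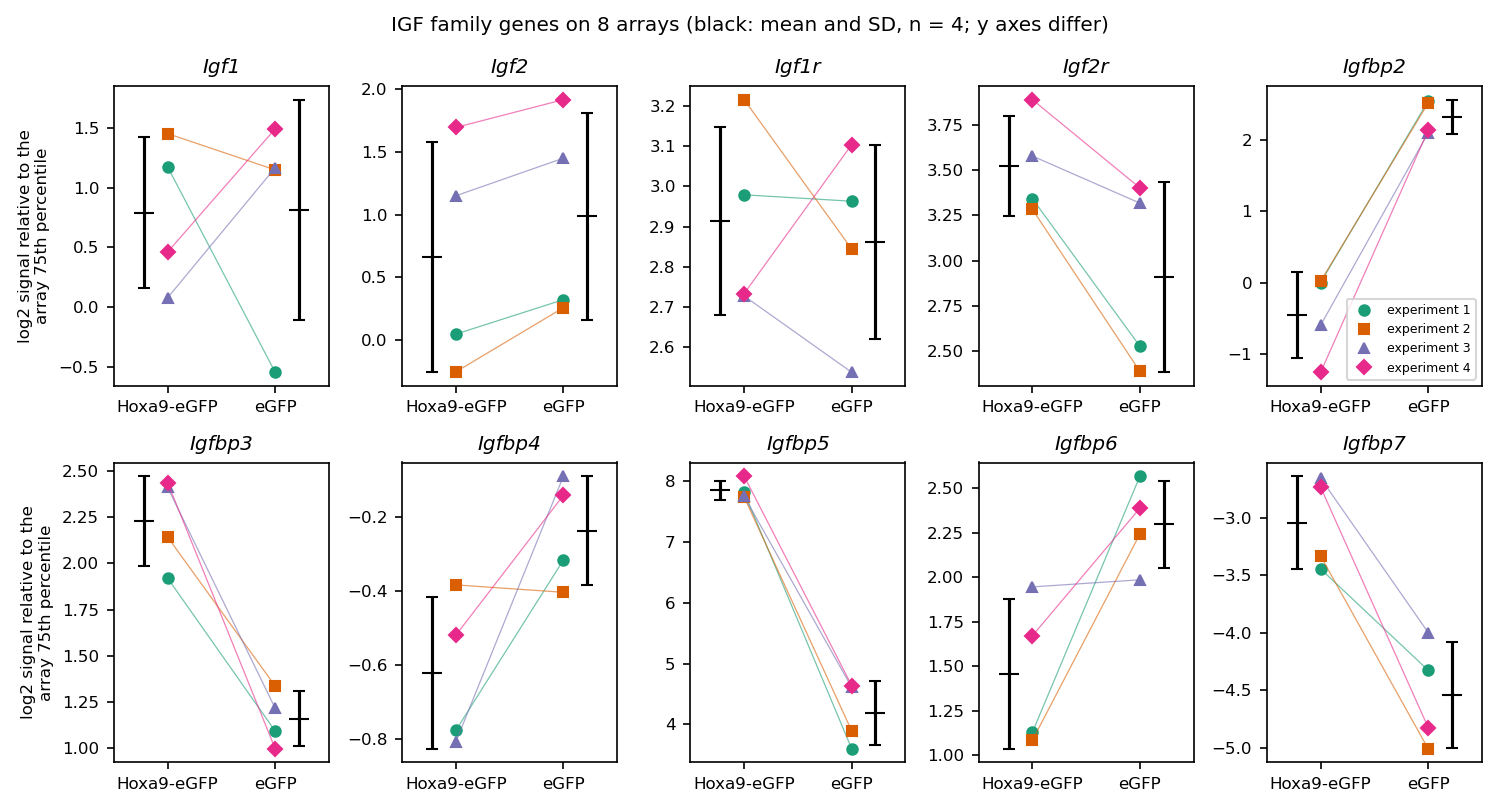
Log2 signal relative to the array 75th percentile (y axis, a separate scale per panel) of the 10 IGF family genes in Hoxa9-eGFP arrays (left) and eGFP arrays (right), with 1 point per array, lines joining arrays of the same experiment number, and black bars for the mean and SD (n = 4). The Hoxa9-eGFP points of Igfbp3, Igfbp5 and Igfbp7 all lie above the eGFP points, those of Igfbp2 and Igfbp6 all lie below, and the groups overlap in the other 5 panels.

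Of the ligands, Igf1 encodes the growth factor made by liver and by muscle itself. The Igf1 probe that represented the gene, A_55_P2085979 (chromosome 10, 87378456 to 87378515, plus strand, RefSeq NM_184052), read 1.17, 1.45, 0.08 and 0.46 in Hoxa9-eGFP replicates 1 to 4, against -0.54, 1.15, 1.17 and 1.49 in eGFP replicates 1 to 4. Hoxa9-eGFP replicates 1 and 2 were the higher pair of their group, eGFP replicate 1 was far below the other eGFP arrays, and the groups overlapped. The difference was -0.02 (SE 0.49, limma adjusted p = 0.980), and within experiments it was 1.72, 0.30, -1.09 and -1.03. It turned to 0.02 with normexp background correction and ranged between -0.48 and 0.21 when 1 array was left out, so its sign was not settled.

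The array holds 4 more Igf1 probes, all carrying RefSeq NM_010512, of which the nearest lies 15045 bases past the first. A pair of them overlap by 40 bases, A_55_P2085984 (87393561 to 87393620) and A_55_P2031631 (87393581 to 87393640), and so are not independent readings. The first 30 bases of A_55_P2031631 lie in the stretch that both hold, all in capitals as all are shared, and are shown because both probes read lower with Hoxa9-eGFP in every experiment.
Igf1 A_55_P2031631, first 30 bases: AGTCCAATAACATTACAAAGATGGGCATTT

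Probe A_55_P2031631 read -3.32, -3.00, -2.62 and -2.88 in Hoxa9-eGFP arrays and -2.67, -2.72, -1.85 and -1.89 in eGFP arrays, a difference of -0.67 (SE 0.27, limma adjusted p over all probes 0.148). Its neighbour A_55_P2085984 read -4.31, -3.70, -3.12 and -3.11 in Hoxa9-eGFP arrays and -3.05, -3.19, -2.39 and -2.26 in eGFP arrays, a difference of -0.84 (SE 0.33, adjusted p = 0.154). The groups overlapped on both probes and neither was called. With the experiment number as a block, A_55_P2085984 passed the threshold (-0.84, limma adjusted p = 0.0370) and A_55_P2031631 did not. The 2 other probes further along, A_55_P2031636 and A_55_P2085974, differed by 0.38 (adjusted p = 0.562) and -0.31 (adjusted p = 0.511). The 5 Igf1 probes thus ran in both directions and none was called without the block. Signal was low on A_55_P2031636, at 19.6 to 48.3 units, and on A_55_P2085974, at 12.05 to 23.01 units. The latter was well above background on only 3 eGFP arrays. The overlapping pair was also dim. A_55_P2085984 gave 30.3 to 66.2 units in Hoxa9-eGFP and 74.9 to 98.7 units in eGFP arrays, and A_55_P2031631 gave 59.97 to 93.6 and 102.8 to 142.8 units. With normexp background correction A_55_P2085984 differed by -0.41 (limma adjusted p = 0.213) and A_55_P2031631 by -0.41 (limma adjusted p = 0.182).

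Igf2, the ligand that myoblasts make as they differentiate, was read by A_55_P2118173 (chromosome 7, 149839661 to 149839720, minus strand). It read 0.05, -0.25, 1.15 and 1.70 in Hoxa9-eGFP arrays, against 0.32, 0.26, 1.45 and 1.92 in eGFP arrays. In both groups arrays 3 and 4 were high and arrays 1 and 2 low, and the groups overlapped. Within experiments the Hoxa9-eGFP array was lower in all 4, with differences of -0.28, -0.51, -0.30 and -0.22. The difference of the means was -0.33 (SE 0.54, limma adjusted p = 0.717). Leaving out 1 array moved it between -0.67, without Hoxa9-eGFP replicate 4, and -0.02, without eGFP replicate 4. It stayed uncalled with the experiment number as a block (SE 0.13, adjusted p = 0.154). Within slides the difference was 1.41, -1.56 and -0.77, where each slide sets arrays of different experiment numbers against each other.

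The markers of several cell types showed a like spread between experiments. The mean of 8 markers of differentiated muscle (Myog, Myh3, Myh8, Ckm, Acta1, Tnnt3, Actn2 and Mymk) was 4.31, 4.35, 5.25 and 5.52 in Hoxa9-eGFP arrays and 3.76, 3.53, 4.81 and 5.03 in eGFP arrays. As for Igf2, arrays 3 and 4 of each group were the high ones. This mean was higher with Hoxa9-eGFP in each experiment. Of the 8 markers, Actn2 was called higher and none lower. With the experiment number as a block, 3 were called higher (Actn2, Myh8 and Tnnt3) and 2 lower (Myog and Myh3), with limma adjusted p from 0.00186 to 0.0414.

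The mean of 7 fibroblast and fibro-adipogenic markers had the same high arrays, at -1.27, -1.08, 0.58 and 0.40 in Hoxa9-eGFP and -0.81, -1.20, 0.18 and -0.11 in eGFP arrays. So did the mean of 6 smooth muscle and pericyte markers, at -0.37, -0.32, 0.70 and 0.19 in Hoxa9-eGFP and -0.52, -0.65, 0.15 and 0.15 in eGFP arrays, and that of 3 endothelial markers, at -1.84, -2.17, -0.70 and -1.02 in Hoxa9-eGFP and -0.84, -1.04, -0.21 and -0.39 in eGFP arrays. The part of any of these markers in the Igf2 values was not tested.

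**Figure D2:**
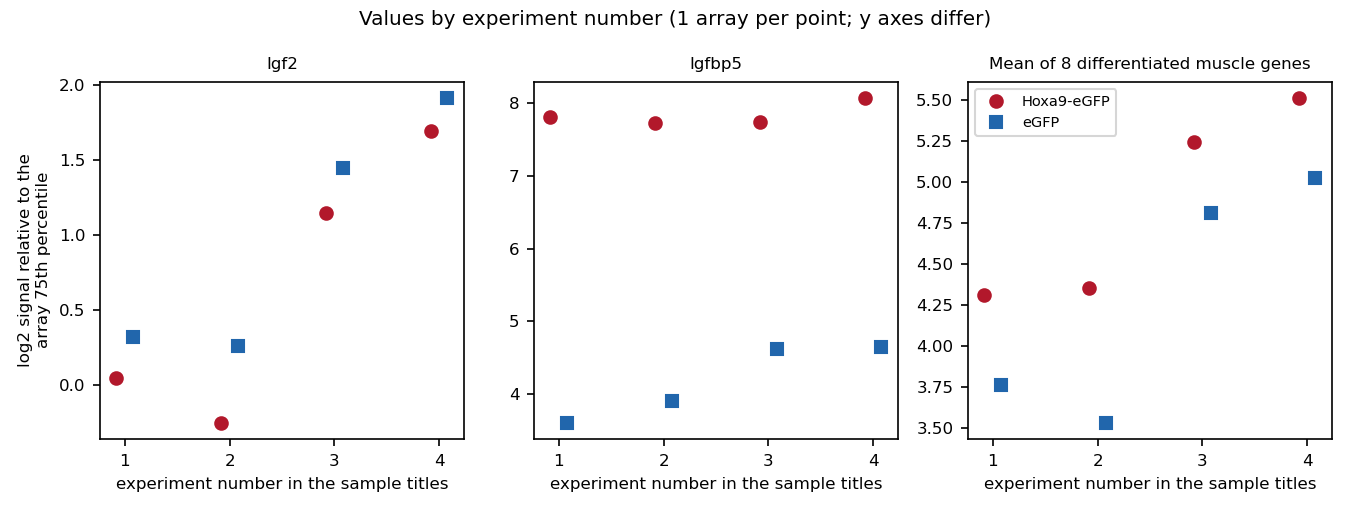
Log2 signal relative to the array 75th percentile (y axis, a separate scale per panel) by experiment number in the sample titles (x axis) for Igf2, Igfbp5 and the mean of 8 differentiated muscle genes, with red circles for Hoxa9-eGFP and blue squares for eGFP, 1 array per point. Igf2 and the muscle mean are higher in experiments 3 and 4 than in 1 and 2 in both groups, while Igfbp5 separates the groups in every experiment, at 7.74 to 8.08 in Hoxa9-eGFP arrays and 3.60 to 4.64 in eGFP arrays.

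Of the receptors, Igf1r, the signalling receptor of both ligands, read 2.98, 3.22, 2.73 and 2.73 in Hoxa9-eGFP arrays and 2.96, 2.84, 2.54 and 3.104 in eGFP arrays (A_66_P105801, chromosome 7, 75378461 to 75378520, plus strand). The groups overlapped throughout, and the difference of 0.05 (SE 0.18, limma adjusted p = 0.876) was smaller than the SD of either group, 0.23 in Hoxa9-eGFP and 0.24 in eGFP arrays. Its sign turned with normexp background correction (-0.09).

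Igf2r, the IGF2 and mannose 6-phosphate receptor, read 3.34, 3.28, 3.58 and 3.89 in Hoxa9-eGFP arrays and 2.53, 2.39, 3.32 and 3.402 in eGFP arrays (A_51_P125467, chromosome 17, listed at 12875253 to 12875263, minus strand). The Hoxa9-eGFP array was the higher in all 4 experiments, yet the groups overlapped, since eGFP replicates 3 and 4 reached the level of Hoxa9-eGFP replicates 1 and 2. The difference of 0.61 (1.53-fold, SE 0.28, limma adjusted p = 0.196) was not called. It was 1.43 on slide 1, -0.0050 on slide 2 and 0.18 on slide 3. Here too each slide sets arrays of different experiment numbers against each other. Within experiments the difference was 0.81, 0.89, 0.26 and 0.49. With the experiment number as a block it stayed uncalled (SE 0.16, limma adjusted p = 0.0649).

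Among the binding proteins, Igfbp5, which binds both IGFs and also the extracellular matrix, showed the largest difference of the family. It read 7.81, 7.74, 7.75 and 8.08 in Hoxa9-eGFP arrays, against 3.60, 3.90, 4.61 and 4.64 in eGFP arrays. Every Hoxa9-eGFP array lay far above every eGFP array, and the Hoxa9-eGFP arrays were also closer together, with 7.84 ± 0.16 against 4.19 ± 0.52 in eGFP arrays (SD, n = 4 each). The difference was 3.66 (12.6-fold higher, SE 0.26, limma adjusted p = 9.72e-05), which ranks 103 among the 27110 genes by size. It was 4.33 on slide 1, 3.16 on slide 2 and 3.11 on slide 3, and 3.57 with the slide as a block. The probe's processed signal was 115200 to 134900 in Hoxa9-eGFP arrays and 7953 to 12600 in eGFP arrays, and no non-control spot of any array was marked as saturated.

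Igfbp2, a binding protein with a preference for IGF2, moved the opposite way to its chromosomal neighbour. Probe A_66_P135391, which represented the gene, read 0.00019, 0.02, -0.60 and -1.26 in Hoxa9-eGFP arrays and 2.55, 2.53, 2.10 and 2.14 in eGFP arrays. The highest Hoxa9-eGFP array lay well below the lowest eGFP array, and the means were -0.46 ± 0.61 in Hoxa9-eGFP and 2.33 ± 0.24 in eGFP arrays (SD, n = 4 each). Igfbp2 fell by 2.79 on the log2 scale (SE 0.30, limma adjusted p = 0.000609). Within slides 1, 2 and 3 the difference was -3.80, -2.10 and -2.74, and with the slide as a block -2.89.

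The Igfbp2 probe over the stop codon gave nearly the same size of difference, although no level can be compared between probes. It read -0.48, -0.42, -1.04 and -1.45 in Hoxa9-eGFP arrays and 2.16, 2.19, 1.70 and 1.43 in eGFP arrays, a difference of -2.72 (limma adjusted p over all probes 0.000653). Hoxa9-eGFP replicate 4 was the lowest array of its group on both probes, and the groups did not overlap on either.

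Igfbp3, the main carrier of IGFs in blood, rose 2.09-fold. Probe A_52_P253179 (chromosome 11, 7106594 to 7106653, minus strand) read 1.92, 2.14, 2.41 and 2.44 in Hoxa9-eGFP arrays and 1.09, 1.34, 1.22 and 0.998 in eGFP arrays. No eGFP array reached a Hoxa9-eGFP array, and the difference was 1.07 (SE 0.17, limma adjusted p = 0.00354), with 1.22, 0.81 and 1.41 on slides 1, 2 and 3. With the slide as a block it was 1.13 (adjusted p = 0.0131).

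A second Igfbp3 probe, A_55_P1992715 (7107949 to 7108008), which carries an Ensembl transcript name and lies 1295 bases from the first, read -1.77, -1.89, -1.30 and -0.91 in Hoxa9-eGFP arrays and -2.94, -2.48, -1.79 and -1.59 in eGFP arrays. The Hoxa9-eGFP array was the higher in all 4 experiments, but the groups overlapped and the difference of 0.73 was not called (SE 0.35, limma adjusted p over all probes 0.229). With the experiment number as a block it passed the threshold (0.73, limma adjusted p = 0.0496).

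Igfbp4, generally described as an inhibitor of IGF action, read -0.78, -0.38, -0.81 and -0.52 in Hoxa9-eGFP arrays and -0.32, -0.40, -0.09 and -0.14 in eGFP arrays (A_52_P257502, chromosome 11, 98913334 to 98913393, plus strand). The groups overlapped through the replicates numbered 2, which lay close together. The difference was -0.38 (SE 0.16, limma adjusted p = 0.153).

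Igfbp6, which binds IGF2 far more tightly than IGF1, was called lower by a narrow margin. It read 1.13, 1.08, 1.95 and 1.67 in Hoxa9-eGFP arrays and 2.57, 2.24, 1.99 and 2.39 in eGFP arrays (A_66_P139546, chromosome 15, 101979852 to 101979911, plus strand). The groups did not overlap, but Hoxa9-eGFP replicate 3 and eGFP replicate 3 nearly met, and the difference within that experiment was -0.04. The difference of the means was -0.84 (1.79-fold, SE 0.24, limma adjusted p = 0.0476).

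The Igfbp6 call was not stable. With the experiment number as a block the adjusted p of Igfbp6 was 0.0958, and the count of family genes called lower was 1 in place of 2. Leaving out any array but Hoxa9-eGFP replicate 3 also ended the call (limma adjusted p = 0.0565 to 0.120), as did quantile normalization, a median shift and no filter on dim probes (adjusted p = 0.0621 to 0.0723). Its difference was -0.74, -0.88 and -0.44 on slides 1, 2 and 3, and -0.71 with the slide as a block (adjusted p = 0.0462).

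Igfbp7, a secreted protein that binds IGFs only weakly and is also known as a secreted marker of senescent cells, was read by A_55_P2018611 (chromosome 5, 77778271 to 77778330, minus strand), a probe of 23.3% GC. It read -3.45, -3.34, -2.66 and -2.74 in Hoxa9-eGFP arrays and -4.33, -5.01, -4.00 and -4.82 in eGFP arrays, with all 8 arrays well above background. All Hoxa9-eGFP arrays were above all eGFP arrays, and the difference was 1.495 (2.82-fold higher, SE 0.28, limma adjusted p = 0.00904). The signal was low, at 53.6 to 91.2 units in Hoxa9-eGFP and 16.4 to 32.7 units in eGFP arrays. With normexp background correction the difference was 0.65 (adjusted p = 0.0178). Within slides 1, 2 and 3 it was 1.93, 0.61 and 2.17, and with the slide as a block 1.51.

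Read probe by probe, 3 of the 16 probes were called higher and 2 lower after adjustment over all 40773 probes kept, where 13.3% of all probes were called, 6.70% higher and 6.65% lower. The groups did not overlap for 6 of the 16 probes, against 22.3% of all probes. The Igfbp6 probe was the one of these 6 that was not called over all probes (adjusted p = 0.0536).

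**Figure D3:**
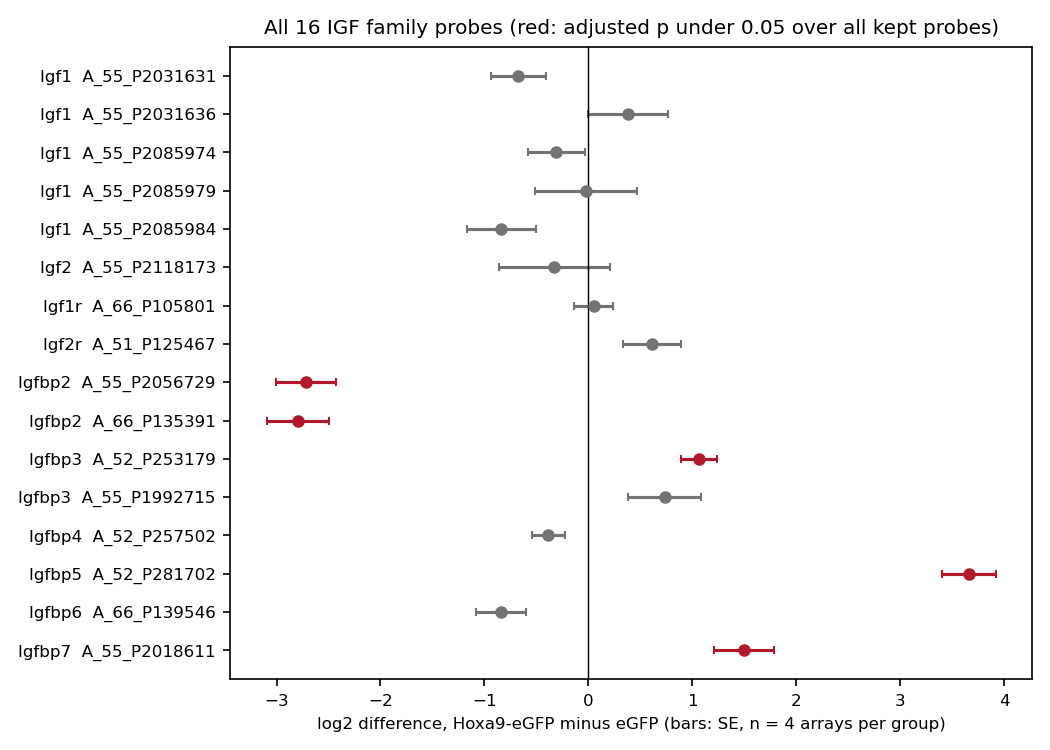
Log2 difference, Hoxa9-eGFP minus eGFP (x axis), of all 16 IGF family probes (rows), with the SE of the limma fit as bars (n = 4 arrays per group) and red for an adjusted p under 0.05 over all probes kept. The Igfbp2 probes lie at -2.79 and -2.72, the Igfbp5 probe lies at 3.66, and the 5 Igf1 probes spread on both sides of 0.

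For each called family gene, the genes whose centred values lay nearest over the 8 arrays were found among 15795 other genes with a RefSeq mRNA probe. Likeness was the root-mean-square difference in log2 units, and the values hold both the group difference and the spread within groups. Nearest to Igfbp5 were Lrmp (0.22) and Adamtsl4 (0.24), which encodes a secreted matrix protein. Nearest to Igfbp2 were Gzmd (0.15), a granzyme gene, and Serpind1 (0.21), which encodes the thrombin inhibitor heparin cofactor II. Nearest to Igfbp3 were Lpin1 (0.12), a phosphatidate phosphatase gene, and Rab29 (0.13). Igfbp6 lay nearest to Klhl30 (0.15) and Olfr746 (0.16), and Igfbp7 to E330009J07Rik (0.20) and Plscr2 (0.20).

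The proteases that cut IGF binding proteins and so release the ligands, together with their inhibitors, were read through 9 genes, of which 8 were measured. Among them 2 were higher, 1 lower and 5 not called, where 15.1% of all genes tested were called. Quantile normalization gave 2 lower, adding Stc1, another stanniocalcin gene (-2.06, limma adjusted p = 0.0357). The Stc1 call rests partly on dim values. Stc1 was well above background on only 1 Hoxa9-eGFP and 3 eGFP arrays, and its lowest Hoxa9-eGFP signal was 2.61 units. Pappa, the protease that cuts IGFBP4 and IGFBP5, read -2.10, -2.003, -1.59 and -1.39 in Hoxa9-eGFP arrays and -4.22, -4.53, -4.25 and -3.63 in eGFP arrays. The groups were far apart, with a difference of 2.39 (5.23-fold higher, SE 0.25, limma adjusted p = 0.000508), which was 1.27 with normexp background correction.

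Stc2, an inhibitor of PAPPA, read 1.79, 1.86, 1.31 and 1.37 in Hoxa9-eGFP arrays and -0.0085, -0.21, 0.29 and 0.56 in eGFP arrays. It was thus higher in every Hoxa9-eGFP array as well, by 1.43 (2.69-fold, SE 0.22, limma adjusted p = 0.00323). Htra1, a serine protease that can cut IGFBP5, ran the other way, at 2.27, 2.02, 2.26 and 1.86 in Hoxa9-eGFP arrays and 4.65, 4.43, 5.03 and 4.66 in eGFP arrays. Its groups were also apart, with a difference of -2.59 (6.03-fold lower, SE 0.18, limma adjusted p = 8.83e-05).

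Of the remaining IGF system genes, Igfbp1 was not well above background on any array and Igfals, the subunit that stabilises IGF and IGFBP3 complexes in blood, was so on 1 Hoxa9-eGFP and 1 eGFP array. H19, the imprinted noncoding RNA next to Igf2, read 7.17, 7.37, 7.64 and 8.10 in Hoxa9-eGFP arrays and 8.45, 8.12, 8.50 and 8.94 in eGFP arrays. The groups came close but did not overlap, and the difference was -0.94 (SE 0.25, limma adjusted p = 0.0392). That call was lost with the slide as a block (-0.87, adjusted p = 0.0928), with quantile normalization (-0.72, adjusted p = 0.115), with no filter on dim probes (adjusted p = 0.0597) and without any array other than Hoxa9-eGFP replicate 4 or eGFP replicate 2 (adjusted p = 0.0791 to 0.100). Among other settings, it was kept with the experiment number as a block (limma adjusted p = 0.0162), the mean of its probes (-1.15, 0.0120), a median shift (0.0215) and normexp (0.0126). Igf2os, the noncoding transcript antisense to Igf2, differed by -1.10 (2.14-fold lower, SE 0.24, adjusted p = 0.0160), and its groups did not overlap. In all, 2 of the 4 measured genes of this list were lower and none higher, where 15.1% of all genes were called.

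Of the 3 genes of IGF2 mRNA-binding proteins, which bind Igf2 and other transcripts in the cytoplasm, 1 was lower and 2 were not called. The share of all genes called was 15.1%. Igf2bp2, the form best known from myoblasts, read 1.45, 1.49, 1.14 and 1.01 in Hoxa9-eGFP arrays and 2.35, 2.20, 1.85 and 2.08 in eGFP arrays. All Hoxa9-eGFP arrays were the lower ones, with a difference of -0.85 (1.80-fold, SE 0.18, limma adjusted p = 0.0134), and a median shift in place of the percentile gave an adjusted p of 0.0549. Igf2bp1 and Igf2bp3 differed by -0.23 and -0.54 (adjusted p = 0.873 and 0.311).

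Downstream of the receptor, 11 receptor and adaptor genes held 2 higher, 1 lower and 8 not called, against 15.1% of all genes called. Shc1, an adaptor that links receptors to Ras, was 1.20 higher (2.29-fold, SE 0.16, limma adjusted p = 0.00154), with 5.13, 5.06, 4.74 and 5.14 in Hoxa9-eGFP arrays and 3.76, 3.64, 4.04 and 3.85 in eGFP arrays. The groups did not overlap, and the same held for Grb14, an adaptor that inhibits the insulin receptor, which differed by -1.17 (2.24-fold lower, SE 0.23, adjusted p = 0.0101). Irs2, an insulin receptor substrate, was 0.82 higher (SE 0.20, adjusted p = 0.0267). Its call was lost with the slide as a block (0.78, adjusted p = 0.0917), with a median shift (adjusted p = 0.109) and without any array other than Hoxa9-eGFP replicate 4 or eGFP replicate 1 (adjusted p = 0.0519 to 0.0762).

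The substrate Irs1 differed by -0.65 and was not called (adjusted p = 0.212), with overlapping groups. It passed the threshold with the slide as a block (-0.87, adjusted p = 0.0348) and with normexp background correction (-0.69, adjusted p = 0.0451). Insr, the insulin receptor gene, differed by 0.47 (adjusted p = 0.187) and Grb10, an imprinted adaptor gene, by -0.28 (adjusted p = 0.631).

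Of 22 genes of the PI3K, Akt and mTOR arm with a probe, 1 was higher, 1 lower and 20 not called. The share of all genes called was 15.1%. Normexp background correction gave 3 lower, adding Pik3r1, a regulatory subunit of PI3K (-0.77, limma adjusted p = 0.0140), and Gsk3b, a kinase that Akt inhibits (-0.55, adjusted p = 0.0288). Pik3cd, a catalytic subunit of PI3K, differed by -1.07 (2.10-fold lower, SE 0.19, limma adjusted p = 0.00682), with -0.84, -0.52, -0.89 and -1.27 in Hoxa9-eGFP arrays and 0.41, 0.22, -0.06 and 0.19 in eGFP arrays. Akt2, an Akt kinase known for insulin action in muscle, was 0.73 higher (adjusted p = 0.0349). The Akt2 call was lost with the mean of its probes (0.37, adjusted p = 0.138), with the slide as a block (0.77, adjusted p = 0.0779), with no filter on dim probes (adjusted p = 0.0560) and without any array other than Hoxa9-eGFP replicate 2 (adjusted p = 0.0503 to 0.105).

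Of 5 genes of FoxO factors, which Akt restrains, and of the atrophy programme they drive, 1 was higher, 1 lower and 3 not called. The share of all genes called was 15.1%. Fbxo32, the muscle ubiquitin ligase gene also called atrogin-1, read 1.15, 1.25, 1.19 and 1.07 in Hoxa9-eGFP arrays and 1.99, 1.94, 2.20 and 2.06 in eGFP arrays. These arrays were tightly grouped, and the difference was -0.88 (1.84-fold lower, SE 0.13, limma adjusted p = 0.00250). Foxo3 was 0.64 higher (adjusted p = 0.0109) on the probe that represented it, but the call was lost on the mean of its probes (0.13, adjusted p = 0.637) and with a median shift (adjusted p = 0.0551).

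**Figure D4:**
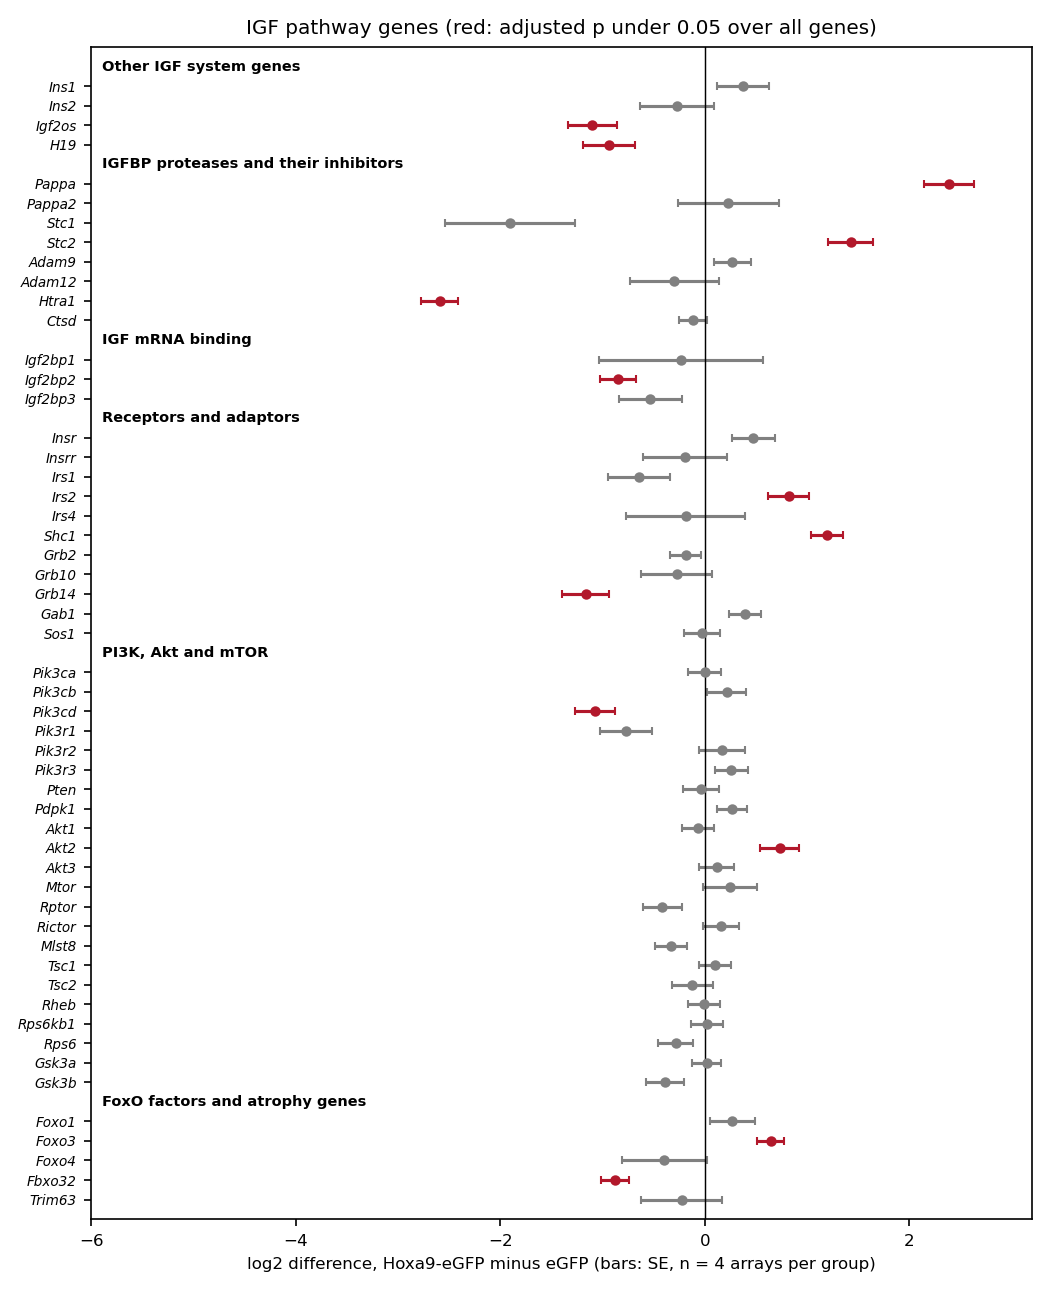
Log2 difference, Hoxa9-eGFP minus eGFP (x axis), of the measured genes of 6 IGF pathway lists (rows), with the SE of the limma fit as bars (n = 4 arrays per group) and red for an adjusted p under 0.05 over all genes. Pappa and Stc2 stand to the right and Htra1 to the left of the protease list, and 20 of the 22 genes of PI3K, Akt and mTOR are grey.

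Markers of other cell types were read beside these values. Of 7 measured fibroblast and fibro-adipogenic markers, Ly6a was called higher (4.55) and none lower, and the groups of array means given above overlapped. Of 6 smooth muscle and pericyte markers, Cnn1 was called higher and Acta2 lower, and their groups of array means overlapped. No measured endothelial (3), leukocyte (4), adipocyte (2) or Schwann cell (3) marker was called in either direction. Ptprc, which marks leukocytes, was well above background on 2 Hoxa9-eGFP arrays and 0 eGFP arrays. Of the other leukocyte markers, Itgam, Csf1r and Cd68 were so on all arrays, and Adgre1 on 3 Hoxa9-eGFP and 2 eGFP arrays. With the experiment number as a block, Ly6a, Cnn1 and Acta2 kept their calls, Myh11 was also called higher, and Lum and the endothelial marker Cdh5 were called lower (limma adjusted p = 0.0438 to 0.0457). These 3 added calls rest partly on dim values. Cdh5 was well above background on 1 Hoxa9-eGFP and 3 eGFP arrays, Lum on 2 and 4, and Myh11 on 4 and 2. Their lowest signals were 2.62, 1.98 and 5.82 units. The part of these cells in the IGF family values was not tested.

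The promoters of the neighbouring genes that moved most are shown because they did so in opposite directions. RefSeq (GRCm38.p6) gave windows for all 10 family genes, 14 in all, each holding the 250 bases before a start. Motifs were searched on both strands as exact letters. The cores bound by posterior Hox proteins were searched as TTTAT and as TTTAC, and the site of their Meis partners as TGACAG. The E-box, bound by myogenic factors among others, was searched as CANNTG and the GC box as GGGCGG. The TATA box was searched as TATAAA, so each match to it also counts as a Hox core on the other strand. In the sequences below, which run 5′ to 3′ on the strand of the gene, capitals mark E-boxes and GC boxes.
Igfbp5 promoter, chr1:72874866-72875115, minus strand: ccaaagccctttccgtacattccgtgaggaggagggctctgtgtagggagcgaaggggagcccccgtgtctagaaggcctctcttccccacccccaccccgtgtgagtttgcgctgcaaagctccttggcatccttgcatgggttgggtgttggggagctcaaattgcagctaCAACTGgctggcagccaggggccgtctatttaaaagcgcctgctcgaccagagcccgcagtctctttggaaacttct
Igfbp2 promoter, chr1:72824230-72824479, plus strand: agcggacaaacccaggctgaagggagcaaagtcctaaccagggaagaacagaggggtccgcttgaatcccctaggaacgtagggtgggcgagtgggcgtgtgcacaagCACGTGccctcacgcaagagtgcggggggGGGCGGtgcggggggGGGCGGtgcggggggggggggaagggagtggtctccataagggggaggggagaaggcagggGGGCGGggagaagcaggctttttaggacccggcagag

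The Igfbp5 window was 58.8% GC and held 1 E-box and none of the other motifs. The Igfbp2 window was 67.2% GC and held 3 GC boxes and 1 E-box, and a further Igfbp2 window held 1 TTTAC and 1 E-box. The most matches to the Hox cores were in the Igfbp6 window, with 2 TTTAC and 3 TTTAT, beside 1 TATAAA and 1 E-box. Elsewhere in the family, TTTAT was found only in Igf2 windows and the Igfbp4 window, and TTTAC only in the further Igfbp2 window. Over all 32851 promoter windows of the same length, 66.2% held an E-box, 32.7% a GC box, 37.3% TTTAT, 28.3% TTTAC, 15.9% TGACAG and 12.4% TATAAA. A match describes letters in a window, not a bound site, and the absence of a match in this window says nothing of the factor.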

How the data were processed

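Gene expression was measured on 8 arrays, 4 Hoxa9-eGFP and 4 eGFP. Each array's deposited intensity values were made by the authors with Agilent Feature Extraction 10.7.3.1 per the submitters' processing notes, background-subtracted per the file headers and not scaled between arrays. The other deposited table, whose cells lacked the decimal point in 86.1% to 87.3% of cases, holds a score. With the point put back, at least 99.998% of its probes differed from the log2 scanner signal by a fixed shift per array to within 0.05, and it served only as an alternative. Probe positions are mm9 per the file headers.

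The processed signal was taken to log2, the 75th percentile of the 55681 non-control probes was taken off per array, and repeated spots were averaged. Control and outlier spots were left out, which removed 180 probes. Probes well above background on at least 4 arrays were kept (40773), and a gene was represented by its kept probe of highest mean (27110 genes). Names were updated through RefSeq accessions (GRCm38), which matched 27656 probes and changed 1711 names. Hoxa9-eGFP was set against eGFP with limma (version 3.58.1, run in R 4.3.3) by lmFit and eBayes, with two-sided tests, no term but group, Benjamini-Hochberg adjustment over all genes and a threshold of 0.05, and again over all kept probes. The fit was tested on simulated data. Precision is limited by having 4 arrays a group.

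All 10 family genes were named with every probe, and of each pathway list up to 4 called genes per direction by lowest adjusted p, plus Insr, Irs1, Irs2, Grb10, Pappa, Stc2, the Igf2bp genes, H19, Igfbp1 and Igfals. Stc1, Pik3r1, Gsk3b and the marker genes given with a call or value, such as Actn2 and Ly6a, were named after their values were seen. The family and the lists were chosen with earlier results of these data known.

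Slide 1 held 1 Hoxa9-eGFP and 2 eGFP arrays, slide 2 held 2 and 1, and slide 3 held 1 and 1. The titles give both groups the same experiment numbers. Same-numbered arrays deviated from their group means together, with correlations of 0.143, 0.228, 0.129 and 0.186, each over the limit of 0.1. The numbers were therefore used as pairs for the differences within experiments and as a block in an alternative fit. The main calls and p-values do not use this pairing. Hoxa9-eGFP replicate 3 with eGFP replicate 4 (0.188) and Hoxa9-eGFP replicate 4 with eGFP replicate 3 (0.137) passed the limit too. Alternatives changed the scaling (quantile normalization or a median shift), the background (normexp, offset 50), the filter (none, or all 8 arrays well above background), the source (the deposited table), the gene's value (the mean over its probes), the model (the slide or the experiment number as a block, or a trended robust prior) and the arrays (each left out once).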

Additional observations from a re-analysis of the deposited data

Results flagged for a closer look

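One value stood far from the others of its group. The Igf1 probe A_55_P2085979 read -0.54 in eGFP replicate 1, while the other eGFP arrays read 1.15 to 1.49, and the gap made up 0.831 of the range of the group, above Dixon's critical value for 4 samples. Chance marks about 1 in 20 groups in this way, and 32 groups were examined, of which 1 was marked. Without that array the Igf1 difference was -0.48 and was not called.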

How the results depend on the processing

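Over 18 alternatives, the calls and directions of Igfbp2, Igfbp3, Igfbp5 and Igfbp7 stayed as reported, with differences of -2.95 to -2.53, 0.90 to 1.17, 3.46 to 3.84 and 0.65 to 1.68, and Igf2, Igf2r and Igfbp4 stayed uncalled with their direction. The number of family genes called lower was 1 under quantile normalization, a median shift, no filter on dim probes and the replicate block, in each of which Igfbp6 was lost (adjusted p = 0.0649, 0.0621, 0.0723 and 0.0958). Leaving out 1 array gave 1 to 2 family genes lower and 3 higher, 2 to 3 family probes lower and 3 higher, and 1303 to 1877 genes lower and 1545 to 1873 higher over the whole array, against 2010 and 2090 with all arrays. The lowest of these counts came without eGFP replicate 2. The sign turned for Igf1 under normexp (0.021) and between -0.48 and 0.21 when an array was left out, for Igf1r under normexp (-0.095) and between -0.057 and 0.13, and for Igf2bp1 between -1.06 and 0.11, none of them called. The cause was not tested. The replicate block changed the calls of Igfbp6, of Igf1 probe A_55_P2085984 (-0.84, adjusted p = 0.0370) and of Igfbp3 probe A_55_P1992715 (0.73, adjusted p = 0.0496), and no other call of the IGF family or of the pathway lists. For the markers, where the block was added after seeing the data, it changed the calls of Myf5, Chrna1, Myog, Myh3, Myh8, Tnnt3, Lum, Myh11 and Cdh5. Igf2 ran from -0.67 to -0.02 when an array was left out. Under normexp the differences of Igfbp7 and Pappa, both of low signal, were 0.65 and 1.27.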
